A study of Mus musculus with 20 samples.

Results

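Bisphenol A (BPA), an industrial compound used to make plastics, was compared directly with estradiol (E2), the main ovarian estrogen, in the mouse uterus 2 h after injection. The members were the 3 arrays labelled BPA at 2 h and the 3 labelled E2 at 2 h, which are 6 of the 20 arrays of the series. All mice were adult ovariectomized C57bl6/J females of at least 10 weeks, rested for 10 to 14 days after surgery. Each received 250 ng E2 or 750 µg BPA under the skin in 100 µl of sesame oil, and each array held the RNA of 1 uterus. By mass the BPA dose was 3000 times the E2 dose, so the compound and its dose cannot be told apart in any difference given here. Values of 3 vehicle arrays (sesame oil alone, labelled 24 h) and of 3 arrays of mice given 750 µg HPTE and collected at 2 h are set beside the members for orientation. HPTE is a metabolite of the pesticide methoxychlor and, like BPA, carries a pair of phenol rings joined through a carbon. Because the vehicle arrays used here carry the 24 h label, a distance from vehicle at 2 h joins the treatment with the time of collection.

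The uterus responds to estrogen through estrogen receptor alpha, a nuclear receptor that regulates transcription either by binding DNA at estrogen response elements or through other factors such as AP-1, a dimer of Fos and Jun proteins. The early response includes a burst of immediate early genes, growth factors and vascular regulators and a fall of many transcripts that the resting tissue maintains. It precedes the synthesis of ribosomes and protein and, later, division of the epithelial cells. BPA binds the same receptor far more weakly than E2.

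A level below is the log2 intensity of a probe minus the 75th percentile of its array, so that 0 is the brightness of a fairly bright probe. A difference is the BPA mean minus the E2 mean on that log2 scale, where 1 is a 2-fold difference. Testing required a signal well above background throughout the BPA group, the E2 group or both, which left 31038 of 41174 probes. A probe was called when the limma p, adjusted by Benjamini-Hochberg over all probes tested, was under 0.05.

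Arrays of the same group correlated at r = 0.979 to 0.990 across the probes tested, and arrays of different groups at 0.957 to 0.985. BPA replicate 3 lay nearer to 2 of the E2 arrays than to its own group. It correlated at 0.985 with E2 replicate 1 and at 0.984 with E2 replicate 3, but at 0.979 with BPA replicate 1 and 0.982 with BPA replicate 2. Its correlation with E2 replicate 2 was lower than any of these, and E2 replicates 1 and 2 correlated with each other at 0.979. The markers of uterine epithelium, stroma, smooth muscle and endothelium were all well above background on each of the 6 arrays. Transcripts of cells that a uterus should not hold, or that vary between animals, also differed between the groups. The summed level of 25 transcripts of maturing sperm, as multiples of the 75th percentile, was 9.51 to 18.2 on the BPA arrays, 1.79 to 3.25 on the E2 arrays, 3.88 to 8.79 on the HPTE arrays and 42.1 to 140.0 on the vehicle arrays. Of these 25, 24 were well above background on each BPA array and 16 or 17 on the E2 arrays. The summed level of 31 transcripts of the exocrine pancreas was 1.99 on E2 replicate 1, 6099 on E2 replicate 2 and 361 on E2 replicate 3, against 2.03 to 2.73 on the BPA arrays. Of the 31, 18 to 22 were well above background on the BPA arrays and 20 to 31 on the E2 arrays, and 16 of 20 tested were called lower under BPA, although E2 replicate 1 lay at the level of the BPA arrays. Lymphocyte markers summed to 33.4, 19.2 and 6.08 on BPA replicates 1 to 3 and to 3.84 to 5.73 on the E2 arrays, with 16 or 17 of the 17 markers above background throughout. Over all genes tested, with 1 probe per gene, 7.59% were called higher under BPA and 13.7% lower. Of the tissue's own markers, 2 of 16 stromal genes (12.5%, Fbln1 and Pdgfra) were called lower. Of the smooth muscle genes, 1 of 14 (7.14%, Des) was called higher. Both lay near the shares of all genes. Of the other marker lists, 1 of 14 adipocyte and 1 of 9 skeletal muscle genes were called lower. Higher calls were 1 of 7 genes of ciliated oviduct (Tekt1) and 1 of 5 of red blood cells. Both fell on probes at least 2-fold higher on vehicle replicate 1 than on both other vehicle arrays, as many sperm transcripts did. None of 8 liver and 4 ovary genes was called by limma or had an unadjusted p under 0.05. The part of these transcripts in the results below was not tested, and their values are repeated where they touch a gene group.

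**Figure D1:**
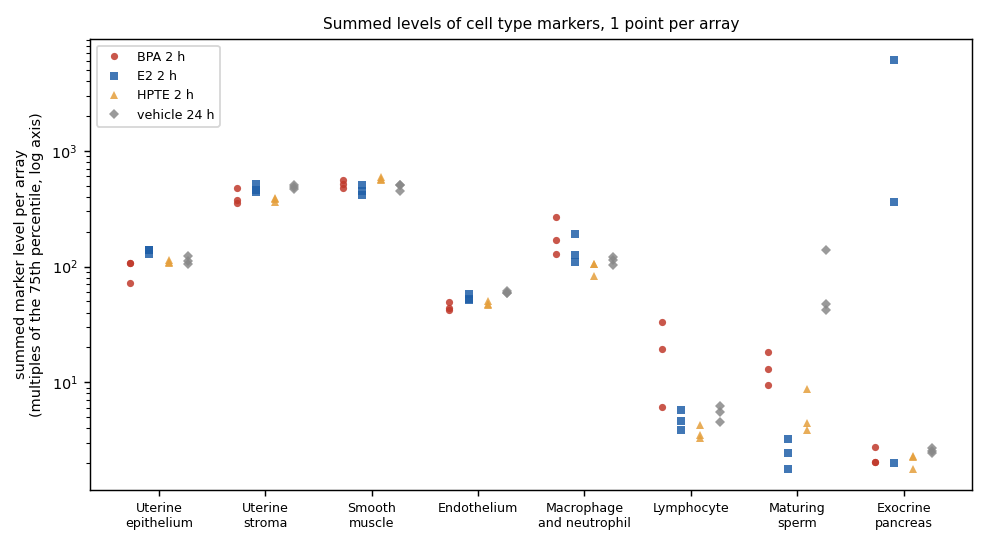
Summed levels of the markers of 8 cell types (x axis) on each array, in multiples of the array's 75th percentile on a log axis. Points are single arrays of the BPA 2 h, E2 2 h, HPTE 2 h and vehicle groups. Maturing sperm transcripts were lowest on the E2 arrays, at 1.79 to 3.25, and pancreatic transcripts were high on 2 E2 arrays.

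Of the 31038 probes, 6141 (19.8%) were called. BPA was lower than E2 at 3596 probes (11.6%) and higher at 2545 (8.2%). Higher probes made up 41.4% of the calls, a share that was 92.2% without scaling between arrays and 71.7% with scaling to spike-in transcripts, so the balance of directions rests on the scaling. Fewer probes were called with the slide as a block (3121) and with the 6 arrays fitted alone (429). Most differences were small, with a median size of 0.52 among the called probes, and the median over all probes tested was -0.020. The size reached 2-fold at 1067 called probes (3.44%), 600 higher under BPA (1.93%) and 467 lower (1.5%). It reached 4-fold at 249 higher and 58 lower probes. Of the probes tested, 244 were not well above background on any E2 array and 22 were not on any BPA array. At such probes the size is read against signal near background, and the filter let in more of them through the BPA group. At 5614 called probes (18.1% of those tested) the 3 BPA arrays all lay on the same side of the 3 E2 arrays. Many of the large higher calls fell on transcripts that were also elevated on vehicle replicate 1, as the sperm transcripts were. Of 710 tested probes that were at least 2-fold higher on vehicle replicate 1 than on both other vehicle arrays, 348 were called higher under BPA and 1 was called lower. Such probes made up 338 of the 600 higher calls of at least 2-fold and 1 of the 467 lower calls. With these probes left out of the fit, an alternative chosen after the data were seen, 2163 probes were higher and 3557 lower. Without BPA replicate 3 the number of calls rose to 8434, and it fell to 3506 without BPA replicate 1. Of the called probes, 97.4% of the lower and 98.1% of the higher kept their direction on the slide that held BPA replicate 3 and E2 replicate 2. On the slide shared by BPA replicate 2 and E2 replicate 3 these shares were 99.8% and 99.9%.

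Probes that another phenolic compound raised or lowered were chosen by HPTE at 2 h against vehicle and then read on the 6 arrays. The BPA and E2 arrays entered that choice through the shared estimate of spread and through the filter on dim probes. HPTE raised 1519 probes (4.89%) and lowered 2739 (8.82%) by at least 2-fold. On the raised probes the median level, relative to each probe's mean over the 6 arrays, was 0.22, 0.40 and -0.12 on BPA replicates 1 to 3 and -0.29, -0.17 and -0.097 on E2 replicates 1 to 3. BPA replicates 1 and 2 thus lay above every E2 array and BPA replicate 3 lay among them. The difference between the group means was 0.35, with an exact permutation p of 0.2 (two-sided, 3 arrays against 3, where the smallest possible p is 0.1). BPA was called higher than E2 at 37.7% of these probes and lower at 4.21%, against 8.2% and 11.6% of all probes.

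On the probes lowered by HPTE the order of the groups was turned. The medians were -0.26, -0.34 and 0.14 on the BPA arrays and 0.22, 0.15 and 0.053 on the E2 arrays, a difference of -0.29 (exact permutation p = 0.2). BPA replicate 3 again lay within the range of the E2 arrays. After probes elevated on vehicle replicate 1 were left out, 2143 remained. Their medians were -0.38, -0.47 and 0.10 on the BPA arrays and 0.32, 0.25 and 0.14 on the E2 arrays, so the groups no longer overlapped and the difference was -0.48 (exact permutation p = 0.1, the smallest possible). Of the 2143, 38.2% were called lower under BPA than under E2 and 1.17% higher. The exclusion was chosen after the values were seen and fell on 1 direction. Probes called higher went from 359 to 25, while those called lower stayed at 818. The wider difference, the lost overlap, the p and the shares of this set are therefore not free of that choice. Without BPA replicate 3 the difference was 0.50 on the raised and -0.44 on all of the lowered probes. Probes chosen by E2 at 24 h (2 arrays) against vehicle gave smaller differences, 0.096 over 3102 raised probes (9.99%; exact permutation p = 0.2) and -0.10 over 5415 lowered probes (17.4%; exact permutation p = 0.3). The direction on the probes lowered by HPTE depended on scaling, since without any scaling between arrays the difference was 0.019, where the median of all probes was itself shifted to 0.27.

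**Figure D2:**
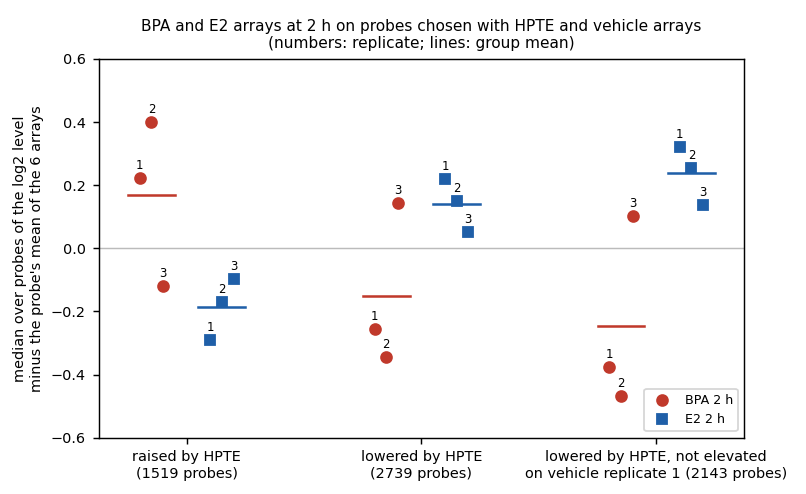
Median over probes of the log2 level minus the probe's mean of the 6 arrays (y axis), for probes raised or lowered at least 2-fold by HPTE at 2 h against vehicle. Points are single arrays with their replicate number, and lines are group means. BPA replicates 1 and 2 lie above the E2 arrays on the raised probes and below them on the lowered probes, while BPA replicate 3 lies near the E2 arrays.

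The 14 genes with the widest gaps below E2 included channels, junction proteins and receptors of epithelia. The gap is the distance between the nearest arrays of the groups. Only called genes without overlap between the groups were eligible, so the lack of overlap in them follows from the choice. Cldn23, a claudin of tight junctions whose probe lies at chr8:34590455-34590514 (mouse assembly mm7), had levels of -3.26, -2.40 and -2.41 on the BPA arrays and -0.30, -0.64 and -0.47 on the E2 arrays. The groups were apart by a gap of 1.76. The difference was -2.22 ± 0.17 (SE), with an adjusted p of 1.41e-05, and the HPTE arrays lay at -2.97, -2.90 and -2.85, beside BPA, with the vehicle arrays between at -1.61, -1.45 and -1.44. Cldn1, another claudin, was at -4.90, -4.41 and -3.28 on the BPA arrays and -1.67, -2.19 and -1.64 on the E2 arrays and differed by -2.37 ± 0.31 (adjusted p = 0.000292), with vehicle at a mean of -1.02.

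Trpv6, an epithelial calcium channel (chr6:41552038-41552097), was at -4.72, -4.28 and -3.61 on the BPA arrays and -1.91, -1.73 and -2.23 on the E2 arrays, and its vehicle mean of -1.61 was close to E2. BPA and HPTE (mean -3.99) both lay lower, and the difference of BPA from E2 was -2.25 ± 0.24 (adjusted p = 8.52e-05). Lpar3, a receptor for lysophosphatidic acid that is required for normal implantation, was at -3.96, -3.34 and -3.68 on the BPA arrays and -1.65, -1.80 and -2.16 on the E2 arrays. Its groups did not overlap and differed by -1.79 ± 0.24 (adjusted p = 0.000294), again with vehicle (-1.83) near E2 and HPTE (-3.59) near BPA. Tox3, a nuclear protein with an HMG box, was at -2.62, -2.67 and -1.79 on the BPA arrays and -0.52, -0.51 and -0.74 on the E2 arrays, and Rnf152, a ubiquitin ligase, differed by -1.52 ± 0.14. Tox3 and Rnf152 had vehicle means near or above the E2 arrays, at -0.41 and -2.42.

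Ano2, a calcium-activated chloride channel, was not well above background on any BPA array, where it read -9.56, -9.06 and -8.14, and lay at -5.48, -6.46 and -5.67 on the E2 arrays. For such genes a fold is a lower bound, taken against the dimmest signal that the array could still tell from background, and Ano2 was at least 2.70-fold lower under BPA (adjusted p = 0.000217). Its other probe was not called that way. By the same measure Trpm3, a cation channel, was at least 3.60-fold lower, and Fut9, a fucosyltransferase that makes Lewis x structures, at least 2.33-fold lower. Sv2b, a synaptic vesicle glycoprotein with 3 tested probes that were all called, was at -5.54, -5.83 and -4.54 on the BPA arrays and -3.10, -2.44 and -2.71 on the E2 arrays. Klhl14, a kelch-like protein, was well above background on 1 BPA array and differed by -2.19 ± 0.40. Gpr12, an orphan receptor, was above background on 2 BPA arrays and differed by -1.62 ± 0.45.

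In Dio2 and Mycn, as in Cldn23, Sv2b, Gpr12 and narrowly Fut9, every E2 array lay above every vehicle array. The vehicle means of Sv2b, Gpr12 and Fut9 were -3.66, -6.23 and -6.63, against E2 means of -2.75, -5.25 and -6.08. Dio2, the deiodinase that activates thyroid hormone (chr12:88205395-88205454), was at 1.15, 1.64 and 3.32 on the BPA arrays and 4.71, 4.52 and 4.57 on the E2 arrays. Its vehicle arrays, at 2.54, 2.98 and 2.68, lay between BPA replicates 1 and 2 and the E2 arrays, and BPA replicate 3 lay above them. Its HPTE arrays read 1.42, 0.71 and 1.22. The difference was -2.56 ± 0.38 (adjusted p = 0.000563). Mycn, a transcription factor of the Myc family, was at 0.33, 0.80 and -1.12 on the BPA arrays and 1.88, 1.82 and 2.13 on the E2 arrays, with vehicle at 0.31, 0.43 and 0.34 and HPTE at 1.60, 1.37 and 1.27. E2 and HPTE lay above vehicle, BPA replicates 1 and 2 near it and BPA replicate 3 below it (difference -1.94 ± 0.34, adjusted p = 0.00156). Among the 14 lower genes, the HPTE mean lay nearer to BPA than to E2 in 13 and the vehicle mean lay nearer to E2 in 11. These genes were picked for their gaps. The same tally over all called probes was not made, so the counts have no share to be read beside.

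The 14 genes with the widest gaps above E2 were mostly transcripts of the testis. Apart from Ighg, an immunoglobulin heavy chain, all were among the probes elevated on vehicle replicate 1. Spata16, a spermatogenesis gene, was at -3.50, -4.20 and -4.91 on the BPA arrays and not well above background on any E2 array. It reached -0.37, -1.95 and -2.58 on the vehicle arrays and -4.95, -6.74 and -6.85 on the HPTE arrays, so the order ran from vehicle through BPA and HPTE to E2. BPA was at least 6.17-fold higher than E2 (adjusted p = 0.000228). Spata4, Cst8 and Allc, also genes of the male tract, were at least 9.32-fold, 7.94-fold and 5.69-fold higher. Ppp3r2, Myh3, Speer3, Capza3, Tcfl5, Nlrp14, Ccdc27, Fabp9 and Adam1b followed the same order, with bounds between 1.87-fold and 6.10-fold. Of 24 tested transcripts on the list of maturing sperm, 16 were called higher, all 16 on probes elevated on vehicle replicate 1, among them the protamines Prm1 at 2.69, 2.20 and 1.61 on the BPA arrays and -2.27, -1.12 and -0.51 on the E2 arrays and Prm2, which differed by 3.62 ± 0.58. Ighg was at 5.90, 5.47 and 0.70 on the BPA arrays and -3.60, -2.60 and -2.42 on the E2 arrays, with -4.08, -3.35 and 1.57 on the vehicle arrays, and its difference of 6.90 ± 2.21 had an adjusted p of 0.0394. BPA replicates 1 and 2 were far above the E2, HPTE and vehicle arrays, as they were for the lymphocyte markers, and neither of its other probes was called in that direction.

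With the probes elevated on vehicle replicate 1 set aside, the rule named Ighg and 13 further genes higher under BPA, a choice made after the values were seen. Otop1, a proton channel (chr5:37384894-37384953), was at -3.88, -3.25 and -5.61 on the BPA arrays and not well above background on the E2 arrays (-8.35, -7.92 and -8.18) or the vehicle arrays (-9.47, -9.52 and -8.74). The HPTE arrays lay at -3.01, -3.07 and -2.99. BPA was at least 5.99-fold higher than E2 (adjusted p = 0.000132), with HPTE above all of the BPA arrays.

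Trim15, of the tripartite motif family, was at -2.60, -2.26 and -4.60 on the BPA arrays and -6.77, -6.25 and -5.85 on the E2 arrays, and BPA exceeded E2 by 3.14 ± 0.57 (adjusted p = 0.00212). Its vehicle arrays lay at -8.77, -9.51 and -8.03, so E2 stood between vehicle and BPA. Adamts2, which trims the amino end of procollagens, had the same order, at -1.15, -1.25 and -2.10 on the BPA arrays and -3.48, -3.66 and -3.49 on the E2 arrays with a vehicle mean of -4.72. Alpl, the tissue-nonspecific alkaline phosphatase, was at 0.87, 0.85 and -0.34 on the BPA arrays and -1.49, -1.38 and -1.38 on the E2 arrays, and Heg1, a membrane protein of the heart and endothelium, at 1.55, 1.72 and 0.78 on the BPA arrays and -0.58, -0.71 and -0.75 on the E2 arrays. In both the E2 arrays lay nearer to the vehicle mean (-1.89 for Alpl and -1.08 for Heg1) than to any BPA array, while the HPTE means were 0.49 and 2.03.

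Liph, a phospholipase that makes lysophosphatidic acid, the ligand of Lpar3, was at least 2.27-fold higher under BPA, where it read -5.46, -5.55 and -5.94. Gfra1, a co-receptor for glial cell line-derived neurotrophic factor, was at -4.18, -3.77 and -4.06 on the BPA arrays and -6.17, -5.73 and -5.71 on the E2 arrays, a difference of 1.86 ± 0.22 (adjusted p = 0.000136). Nedd4l, a ubiquitin ligase of epithelial channels, differed by 1.90 ± 0.18, Add2, a membrane skeleton adducin, by 1.63 ± 0.18 and Sh2d5 by 1.65 ± 0.17, with 1 of 2 probes called for Nedd4l and 1 of 4 for Add2. Cxcl1, Cxcl10 and Ighg were the genes in which the HPTE mean lay nearer to E2. Cxcl1, a neutrophil attractant, was at -3.14, -2.74 and -3.16 on the BPA arrays and -4.70, -5.80 and -5.77 on the E2 arrays, with HPTE at -5.24, -5.03 and -4.85 and vehicle at -5.42, -5.07 and -5.08. Its difference was 2.41 ± 0.36 (adjusted p = 0.000599). Among these 14 genes the HPTE mean lay nearer to BPA in 11 and the vehicle mean nearer to E2 in 13. Before probes elevated on vehicle replicate 1 were set aside, the counts were 6 and 1 of 14. The tally is therefore not free of that choice.

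**Figure D3:**
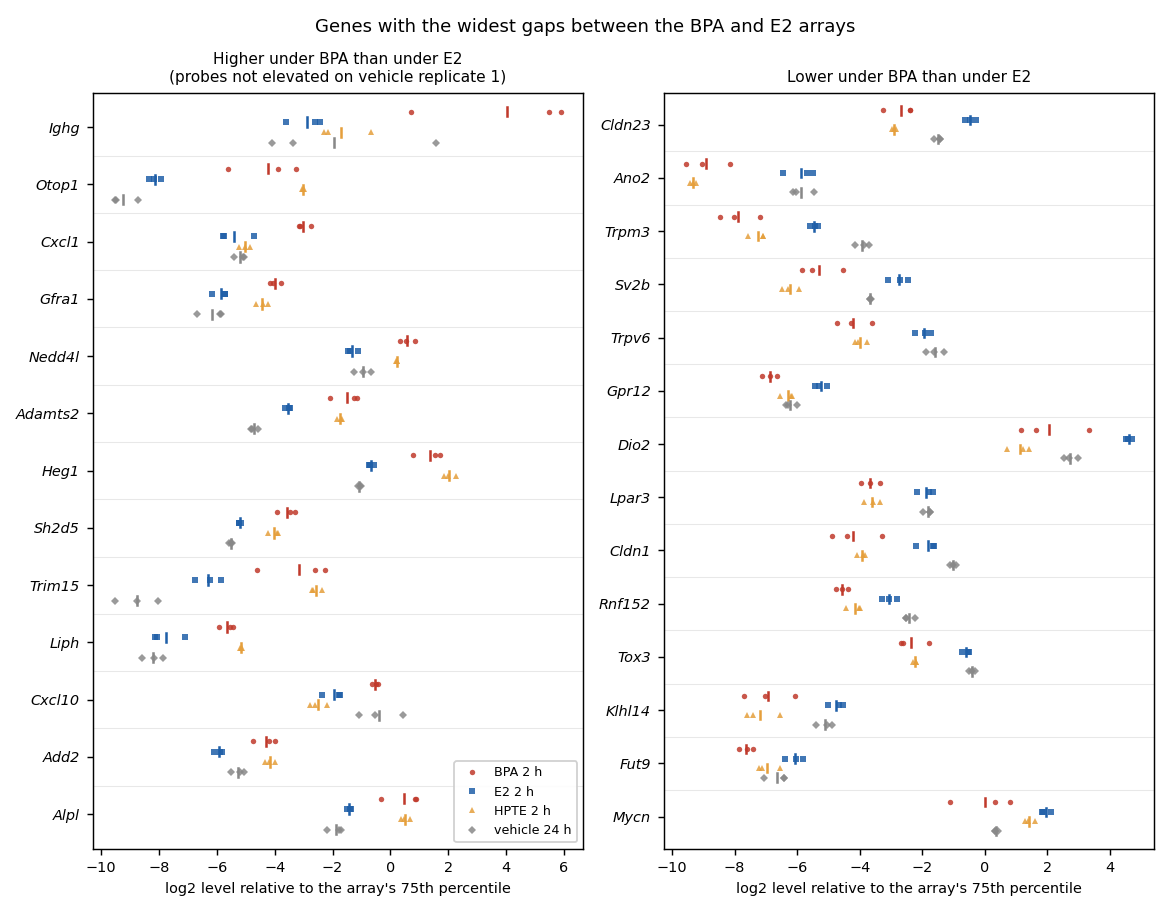
Levels of genes with the widest gap in each direction (y axis) on the log2 scale relative to the array's 75th percentile (x axis). Points are single arrays and short lines are group means. The left panel holds 13 of the 14 higher genes (without probes elevated on vehicle replicate 1), and HPTE lay nearer to E2 than to BPA in Ighg, Cxcl1 and Cxcl10. In the right panel HPTE lay nearer to BPA in 13 of the 14 lower genes.

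Gene lists of pathways were read with 1 probe per gene. Over the 20496 genes tested this way 21.2% were called, 7.59% higher and 13.7% lower under BPA, with a median difference of -0.051. Each list below is to be read beside these shares, with lower calls the commoner kind over all genes too. Members are named mostly for the widest gaps, so a lack of overlap in them largely follows from that choice. Smaller shares were called in collagens (9.09%), cholesterol synthesis (16%), Nrf2 targets (15%), growth inhibitors (13.3%), hair keratins (16.7%) and the IGF axis (8.33%). The interferon response had 8.33%. Near that of all genes were feedback inhibitors (21.1%), cytokine signalling (21.4%), translation factors (22.2%), matrix proteases (24%) and Sox and Forkhead factors (24%). Directions are relative to the scaling of the arrays. Without scaling the median over all probes moved to 0.27, and 191 genes of the pathway lists were called higher and 21 lower, against 87 and 116 with scaling. The medians of 11 lists changed sign without scaling or with spike-in scaling: vascular regulators, steroid receptors, activin and BMP, aquaporins, glucocorticoid-responsive genes, growth inhibitors, the IGF axis, feedback inhibitors, matrix proteases, collagens and Nrf2 targets.

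The immediate early genes did not move one way. AP-1 is built from Fos and Jun proteins, and of 11 tested members 2 were higher and 2 lower under BPA. Fos was at 2.26, 2.07 and 0.97 on the BPA arrays and 2.66, 2.92 and 3.04 on the E2 arrays, a difference of -1.10 ± 0.28 (SE) (adjusted p = 0.0133). All 6 arrays lay above the vehicle mean of -2.51, the E2 arrays were the highest and BPA replicate 3 was the lowest. Jun was at 3.20, 2.86 and 2.36 on the BPA arrays and 3.67, 3.66 and 3.70 on the E2 arrays and differed by -0.87 ± 0.15 (adjusted p = 0.00154). Fosl1, which encodes the Fos relative Fra-1, went the other way, at -2.82, -2.23 and -2.15 on the BPA arrays and -4.97, -4.12 and -3.51 on the E2 arrays, a difference of 1.80 ± 0.38 (adjusted p = 0.00517). Jund was slightly higher under BPA, by 0.38 ± 0.13, a call just inside the threshold (adjusted p = 0.0489). Members that were not called included Atf3, at a difference of 0.26 with a 95% interval of -0.29 to 0.82.

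Of the 17 early factors of the Egr, Nr4a, Klf, Myc and Srf kind, 6 were lower under BPA and 1 was higher. Egr1, a zinc finger factor induced within minutes by growth signals, was at 4.28, 4.17 and 4.22 on the BPA arrays and 4.53, 4.74 and 4.83 on the E2 arrays against a vehicle mean of 2.00. Its groups did not overlap, and the difference was -0.47 ± 0.093 (adjusted p = 0.00325). Klf4 and Klf2 were lower by similar amounts, at differences of -0.42 ± 0.10 and -0.36 ± 0.11, and Myc, the growth regulator, at -0.72 ± 0.22. Klf15 lay below its vehicle mean of 2.30 on all 6 arrays, at 0.037, 0.085 and 1.46 on the BPA arrays and 1.92, 2.04 and 1.43 on the E2 arrays. Srf, the serum response factor, was the member higher under BPA, at 3.86, 4.28 and 4.28 on the BPA arrays and 3.38, 3.42 and 3.65 on the E2 arrays (adjusted p = 0.0017).

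Among 23 other immediate early genes 7 were higher and 3 lower. The lower ones were Plk2, a polo-like kinase, at 2.61, 2.89 and 1.80 on the BPA arrays and 4.23, 3.95 and 3.71 on the E2 arrays (difference -1.53 ± 0.23, adjusted p = 0.000687), Ier2 at -0.62 and Zfp36l1, a protein that speeds mRNA decay, at -0.72. Ier5 was higher, at 4.26, 4.31 and 4.50 on the BPA arrays and 3.68, 3.67 and 3.70 on the E2 arrays. Its E2 arrays lay at its vehicle mean of 3.72, and BPA exceeded them by 0.67 ± 0.072 (adjusted p = 9.29e-05). Maff, a small Maf factor, was higher by 0.76 ± 0.15, Plk3 by 0.52 ± 0.11, Trib1 by 0.41 ± 0.11 and Csrnp1 by 0.45 ± 0.14. Rgs1, at -0.65, -0.20 and 0.14 on the BPA arrays and -1.18, -1.62 and -1.54 on the E2 arrays, and Nfkbiz, at 2.34, 0.22 and 0.062 on the BPA arrays and -0.48, -0.20 and -0.41 on the E2 arrays, were also called higher. Both are expressed in immune cells, whose summed markers were highest on BPA replicate 1, and the part of those cells in these values was not tested.

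**Figure D4:**
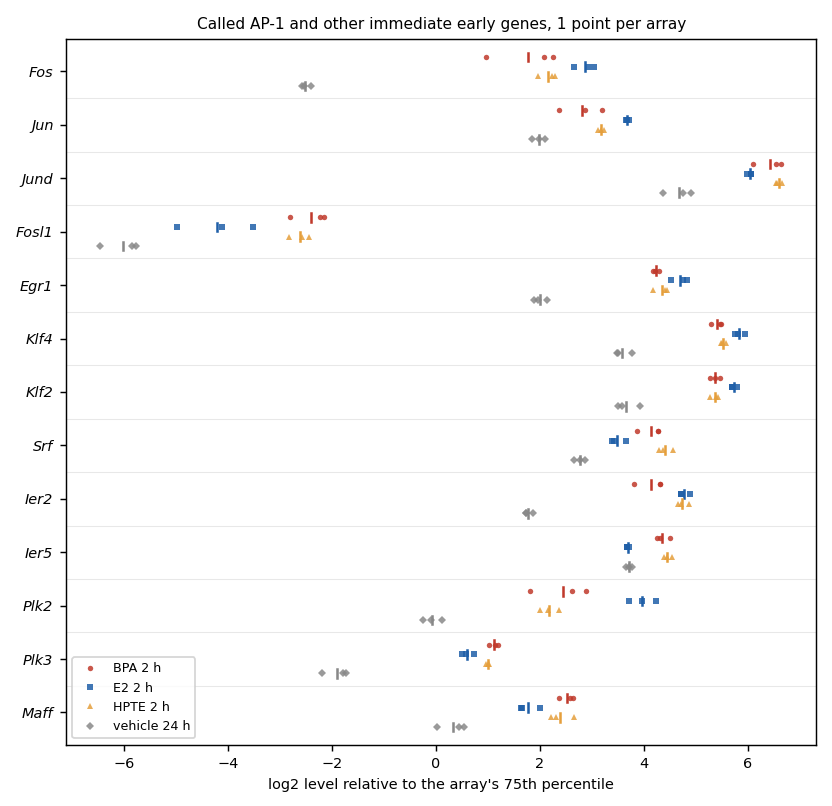
Levels of called AP-1 members and other early genes (y axis) on the log2 scale relative to the array's 75th percentile (x axis), with 1 point per array and short lines for group means. Fos, Jun, Egr1, Klf4, Klf2, Ier2 and Plk2 were higher under E2 than under BPA, and Fosl1, Jund, Srf, Ier5, Plk3 and Maff were lower. All but Ier5 lay above the vehicle arrays under both compounds.

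Since AP-1 factors differed in both directions, the AP-1 letters were looked for in promoters, as a description only. RefSeq promoters (GRCm38.p6) of 300 bases, from 250 before the start of the gene to 50 after it, were matched to 12606 of the genes tested. The first one listed was used for each gene, a gene counted as called where any of its probes was, and probes elevated on vehicle replicate 1 did not count. The AP-1 motif TGANTCA, searched on both strands, was in 5.56% of these promoters, in 5.23% of those of genes called higher under BPA and in 4.67% of those called lower. With a call of at least 2-fold the shares were 8.11% (12 of 148 promoters) for higher and 5.63% (12 of 213) for lower genes. The palindromic estrogen response element with both half-sites intact was in 0.0238% of all promoters and in none of either set. The xenobiotic response core GCGTG was in 46.6% of all, 51.6% of higher and 46.5% of lower promoters, but in 36.5% (54 of 148) and 39.4% (84 of 213) with a call of at least 2-fold. Promoters of 2 genes from each direction are shown because they hold the AP-1 letters, marked in capitals, close upstream of the start. Cxcl10 and Plaur were higher under BPA, and Mmp10 and Zfp36l1 were lower. They lie at chr5:92348840-92349139 (minus strand), chr7:24462233-24462532 (plus strand), chr9:7502092-7502391 (plus strand) and chr12:80112964-80113263 (minus strand).
Cxcl10: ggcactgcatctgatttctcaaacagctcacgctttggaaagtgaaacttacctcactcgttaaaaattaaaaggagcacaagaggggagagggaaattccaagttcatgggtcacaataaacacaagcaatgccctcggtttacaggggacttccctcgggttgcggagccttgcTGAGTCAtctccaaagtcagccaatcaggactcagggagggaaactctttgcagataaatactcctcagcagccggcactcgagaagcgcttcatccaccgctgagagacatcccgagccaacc
Plaur: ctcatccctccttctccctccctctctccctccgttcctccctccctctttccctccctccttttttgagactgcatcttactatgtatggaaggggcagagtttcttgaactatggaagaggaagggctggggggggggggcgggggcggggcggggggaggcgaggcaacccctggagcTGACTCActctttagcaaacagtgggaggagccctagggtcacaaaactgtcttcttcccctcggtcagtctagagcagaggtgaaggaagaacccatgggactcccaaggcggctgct
Mmp10: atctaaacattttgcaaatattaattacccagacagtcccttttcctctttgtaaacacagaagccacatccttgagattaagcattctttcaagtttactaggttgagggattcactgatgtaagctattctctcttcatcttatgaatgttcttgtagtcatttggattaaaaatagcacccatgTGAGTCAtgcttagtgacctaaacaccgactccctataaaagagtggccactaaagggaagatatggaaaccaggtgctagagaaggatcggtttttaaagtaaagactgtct
Zfp36l1: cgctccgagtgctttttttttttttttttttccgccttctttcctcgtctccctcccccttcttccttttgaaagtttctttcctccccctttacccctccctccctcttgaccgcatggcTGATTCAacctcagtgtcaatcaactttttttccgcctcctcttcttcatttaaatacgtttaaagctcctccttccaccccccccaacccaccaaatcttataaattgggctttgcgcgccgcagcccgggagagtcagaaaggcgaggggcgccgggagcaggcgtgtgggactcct
The motif begins at base -74 from the start in Cxcl10, -69 in Plaur, -63 in Mmp10 and -129 in Zfp36l1.

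EGF family ligands and their ErbB receptors carry growth signals between uterine cells. Of 11 tested, 4 were lower and 2 higher, and the median difference was -0.47. Btc, the ligand betacellulin, was at -6.16, -5.85 and -5.38 on the BPA arrays and -4.34, -4.57 and -4.58 on the E2 arrays, a difference of -1.30 ± 0.16 (adjusted p = 0.000221), and the receptor Erbb3 was at -0.37, -0.071 and 0.29 on the BPA arrays and 1.17, 0.78 and 0.87 on the E2 arrays. Both lay near vehicle under E2 (vehicle means -4.23 and 1.08) and below it under BPA and HPTE. Only 1 of 4 Erbb3 probes was called. Hbegf, a ligand with a part in implantation, was higher under BPA, at 2.82, 3.04 and 3.19 on the BPA arrays and 2.08, 2.55 and 2.71 on the E2 arrays with vehicle at 0.43, and so was the receptor Egfr by 0.30 ± 0.076. Among 19 inhibitors that feed back on this pathway, 2 were higher and 2 lower. Errfi1, which binds and blocks the EGF receptor, was at 4.90, 4.95 and 3.77 on the BPA arrays and 5.20, 5.55 and 5.53 on the E2 arrays, where all BPA arrays lay below the E2 arrays and BPA replicate 3 was the lowest (difference -0.89 ± 0.22, adjusted p = 0.0131).

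Wnt ligands and the genes that restrain Wnt signalling were lower under BPA more often than higher, as were all genes tested. The shares called were 38.5% and 40%, against 21.2% of all genes. Of 13 ligands 4 were lower and 1 was higher. Wnt7a, a ligand made by the uterine epithelium, was at -2.07, -1.22 and 0.52 on the BPA arrays and 0.70, 1.10 and 1.23 on the E2 arrays, with vehicle at 0.58 and HPTE at -1.41. BPA replicate 3 lay close to the E2 arrays, and the difference was -1.93 ± 0.43 (adjusted p = 0.0068). Wnt16 (-0.85 ± 0.14), Wnt6 (-0.86 ± 0.21) and Wnt11 (-0.58 ± 0.17) were also lower. Wnt7b was higher under BPA, at -1.43, -1.28 and -2.52 on the BPA arrays and -3.05, -3.23 and -2.60 on the E2 arrays (adjusted p = 0.0053). Of 20 antagonists and feedback genes 6 were lower and 2 higher. Lgr5, an R-spondin receptor that marks epithelial progenitors, was at -2.28, -1.66 and -1.01 on the BPA arrays and -0.57, -0.071 and -0.14 on the E2 arrays against a vehicle mean of 0.13, a difference of -1.39 ± 0.23 (adjusted p = 0.00124). Nkd1, Znrf3, Dkk2, Dkk3 and Nkd2 were lower too, with differences from -0.92 for Dkk2 to -0.44 for Dkk3. Axin1, a scaffold of the complex that destroys beta-catenin, was higher at 0.37, 0.32 and 0.44 on the BPA arrays and -0.18, 0.067 and 0.02 on the E2 arrays, and Tcf7 differed by 0.43 ± 0.10.

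Markers of the uterine epithelium were also lower where called. Of 18 markers 8 were called lower under BPA and none higher, with a median difference of -0.45. Krt8, a keratin of simple epithelia, was at 3.66, 4.27 and 4.22 on the BPA arrays and 4.65, 4.56 and 4.76 on the E2 arrays. Its partner Krt18 was at 4.58, 5.23 and 5.30 on the BPA arrays and 5.74, 5.71 and 5.66 on the E2 arrays. The BPA arrays lay below the E2 arrays in both, as they did for Krt19, at 2.74, 2.81 and 2.88 on the BPA arrays and 3.62, 3.36 and 3.65 on the E2 arrays. Cldn3 differed by -1.15 ± 0.19, Ovol1 by -1.45 ± 0.22 and Elf3 by -0.74 ± 0.14, whereas Epcam (-0.52), Cdh1 (-0.37) and Krt7 (0.044) were not called. The summed level of the 18 markers was 72.4, 108 and 107 on BPA replicates 1 to 3, 129 to 139 on the E2 arrays, 107 to 113 on the HPTE arrays and 106 to 124 on the vehicle arrays. Every E2 array thus lay above every vehicle array, BPA replicates 2 and 3 lay within the vehicle range and BPA replicate 1 below it. Changes in the number of epithelial cells and in RNA per epithelial cell, under either compound, cannot be told apart in whole uteri. The part of this shift in the lower values of Cldn23, Cldn1 and other epithelial genes was not tested. Wnt7a, given above, is itself among the 18 markers and has the lowest difference of them, -1.93. The called keratins differed by -0.74 (Krt19) to -0.61 (Krt8).

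Patterning factors that mark regions of the reproductive tract were lower where called. Of 20 Hox genes 6 were lower and none higher, with a median of -0.43. Hoxd10 was at 0.22, 0.27 and 0.54 on the BPA arrays and 1.23, 0.94 and 1.12 on the E2 arrays, a difference of -0.76 ± 0.11 (adjusted p = 0.00047), and its vehicle mean of 1.15 lay with E2. Hoxb5, Hoxb7, Hoxd8, Hoxd9 and Hoxd11 were the others. The 16 markers of uterine stroma, Hoxa10 and Hoxa11 among them, summed to 354 to 477 on the BPA arrays and 440 to 519 on the E2 arrays with a median difference of -0.37, beside the -0.45 of the epithelial markers. Their part in the Hox values was not tested. Of 25 Sox and Forkhead factors 6 were lower and none higher. Foxp1 was at 1.91, 1.67 and 1.89 on the BPA arrays and 2.43, 2.23 and 2.19 on the E2 arrays, and Sox7, Sox8, Sox13, Foxc2 and Foxq1 were lower, with Sox8 at a difference of -0.72. Sox8 had 1 of 2 probes called.

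Chemokines and cytokines were higher under BPA more often than lower. Of 25 chemokines 7 were higher and 1 was lower, with a median difference of 0.58. Cxcl10, an attractant of T cells induced by interferon, was at -0.41, -0.65 and -0.49 on the BPA arrays and -2.36, -1.73 and -1.79 on the E2 arrays, with vehicle at -0.55, 0.43 and -1.07 and HPTE at -2.78, -2.59 and -2.18. The BPA arrays lay within the range of the vehicle arrays and the E2 and HPTE arrays below it (difference 1.44 ± 0.43, adjusted p = 0.0271). Cxcl9, another interferon-induced attractant, was at -1.26, -1.17 and -2.63 on the BPA arrays and -3.51, -2.95 and -3.24 on the E2 arrays with a vehicle mean of -2.26, and BPA replicate 3 was nearest to the E2 arrays. Ccl2, an attractant of monocytes, was at 0.53, 0.62 and -0.96 on the BPA arrays and -1.14, -1.37 and -1.42 on the E2 arrays, with a vehicle mean of -1.49. The related Ccl7 was at -0.79, -1.21 and -2.41 on the BPA arrays and -2.94, -2.94 and -2.80 on the E2 arrays, with a vehicle mean of -3.49. BPA replicate 3 lay closer to the E2 arrays than to the other BPA arrays in both, and Ccl3 overlapped between the groups though it was called (adjusted p = 0.0412).

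Of 28 genes of cytokine signalling 5 were higher and 1 was lower. Il6, an inflammatory cytokine, was at -5.14, -5.21 and -5.68 on the BPA arrays and -6.99, -6.80 and -6.64 on the E2 arrays, with vehicle at -8.10 and HPTE at -6.58. No array overlapped, and the difference was 1.47 ± 0.32 (adjusted p = 0.00594), with 2 of the 3 E2 arrays well above background. Socs7, on a probe elevated on vehicle replicate 1, was higher by 1.10 ± 0.25, Stat3, a transducer of interleukin 6 signals, by 0.41 ± 0.14, and Osmr by 0.32 ± 0.11. Tnf was called at 1.25 ± 0.39, but its groups overlapped. Socs2, an inhibitor of growth hormone signals, was lower, at 1.52, 1.57 and 0.60 on the BPA arrays and 1.72, 1.86 and 1.95 on the E2 arrays. Of 24 interferon-responsive genes 2, Irgm1 (0.82 ± 0.15) and Gbp2 (0.43 ± 0.14), were higher and none lower. Macrophage and neutrophil markers summed to 267, 169 and 129 on BPA replicates 1 to 3 and to 192, 110 and 126 on E2 replicates 1 to 3, with 15 of 16 above background on each array. None of the 15 tested was called by limma (7 had an unadjusted p under 0.05), and their median difference was 0.75. Of 16 lymphocyte markers 4 were called higher, Cd79b (2.48, 1.74 and -0.14 on the BPA arrays and -0.26, -0.91 and -0.68 on the E2 arrays), Ms4a1, Cd8a and Lck. The part of immune cells in the chemokine and cytokine values was not tested.

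Genes that make ribosomes and protein were higher under BPA where called, with the exception of Eif4ebp1. Of 40 genes of ribosome biogenesis 11 were higher and none lower (27.5%, against 7.59% higher among all genes), with a median of 0.23. Rrp12 was at -1.55, -1.24 and -1.35 on the BPA arrays and -2.77, -2.04 and -2.27 on the E2 arrays with a vehicle mean of -3.24, a difference of 0.98 ± 0.23 (adjusted p = 0.00844). Ddx21, a helicase of the nucleolus, was at 1.47, 1.61 and 1.33 on the BPA arrays and 0.93, 0.87 and 1.03 on the E2 arrays, and Bysl, needed for the small subunit, at 1.77, 2.10 and 1.86 on the BPA arrays and 1.10, 1.39 and 1.48 on the E2 arrays. In each the E2 arrays lay between the vehicle mean (0.17 and 0.31) and the BPA arrays. Heatr1, Nop14, Nop2, Gnl3, Ltv1, Wdr43, Noc3l and Nop58 were higher by 0.32 (Nop58) to 0.50 (Heatr1). Of 36 translation factors and tRNA synthetases 7 were higher and 1 was lower. Aars, the alanyl-tRNA synthetase, was at 2.66, 2.85 and 2.75 on the BPA arrays and 2.01, 1.65 and 2.20 on the E2 arrays (adjusted p = 0.0014), and the lower member was Eif4ebp1 (-0.65 ± 0.16), a repressor of translation. The medians of both lists were above 0 under every scaling tried.

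Chaperones were called in the same direction. Of 20 heat shock proteins 7 were higher under BPA and none was lower. Hsph1 was at 3.85, 4.07 and 3.78 on the BPA arrays and 3.46, 3.40 and 3.27 on the E2 arrays. Stip1, which links the chaperones Hsp70 and Hsp90, was at 2.00, 1.97 and 1.98 on the BPA arrays and 1.64, 1.58 and 1.64 on the E2 arrays. Hspa1a, an inducible Hsp70, was at 3.03, 3.16 and 3.73 on the BPA arrays and 2.78, 2.74 and 2.61 on the E2 arrays. The groups did not overlap in any of these, and the differences were 0.52 ± 0.089, 0.36 ± 0.075 and 0.60 ± 0.15. Dnajb4, Hspa4l, Bag3 and Dnajb1 were the others. Of 25 genes of the unfolded protein and integrated stress responses 2 were higher and none lower, below the share of all genes called. They were Atf4, the transcription factor of the integrated stress response, at 2.43, 2.62 and 2.35 on the BPA arrays and 1.26, 1.93 and 1.78 on the E2 arrays with a vehicle mean of 0.31, and Hspa5, which differed by 0.34 ± 0.11.

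Genes of xenobiotic metabolism split, with 4 of 43 higher and 15 lower. Cyp2s1, a cytochrome P450 of epithelia, was at 2.63, 2.91 and 2.05 on the BPA arrays and 0.79, 0.78 and 1.08 on the E2 arrays, and the E2 arrays lay near the vehicle mean of 0.65 while HPTE, at 2.66, lay with BPA. The difference was 1.65 ± 0.17 (adjusted p = 8.24e-05). Gsta1 and Gsta2, near-identical glutathione transferases that a probe may not tell apart, were called higher. Gsta1 was at -2.65, -1.87 and -2.48 on the BPA arrays and -2.97, -4.16 and -3.83 on the E2 arrays, and Gsta2 ran in parallel with a difference of 1.25 ± 0.38. Aldh1a2, which makes retinoic acid, was higher by 0.50 ± 0.16. The lower genes included 8 glutathione transferases (Gstm1, Gstm2, Gstm3, Gstm5, Gstk1, Gstt2, Gstt3 and Mgst1), with differences of -0.57 (Gstt3) to -0.37 (Gstm1). Gstm1 was at 5.80, 6.04 and 6.16 on the BPA arrays and 6.45, 6.35 and 6.31 on the E2 arrays, with vehicle at 6.49. Sult1d1, a sulfotransferase, was at -0.093, 0.26 and 0.58 on the BPA arrays and 1.92, 1.14 and 1.18 on the E2 arrays, and Ahr, the receptor for dioxins, and its repressor Ahrr differed by -0.51 ± 0.16 and -0.43 ± 0.092. Aldh1a1, Cyp2j6, Cyp26a1 and Ugt2b34 were the other lower members. Of 20 targets of the oxidative stress factor Nrf2 3 were lower (Gclc, Gsr and Slc7a11) and none higher.

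**Figure D5:**
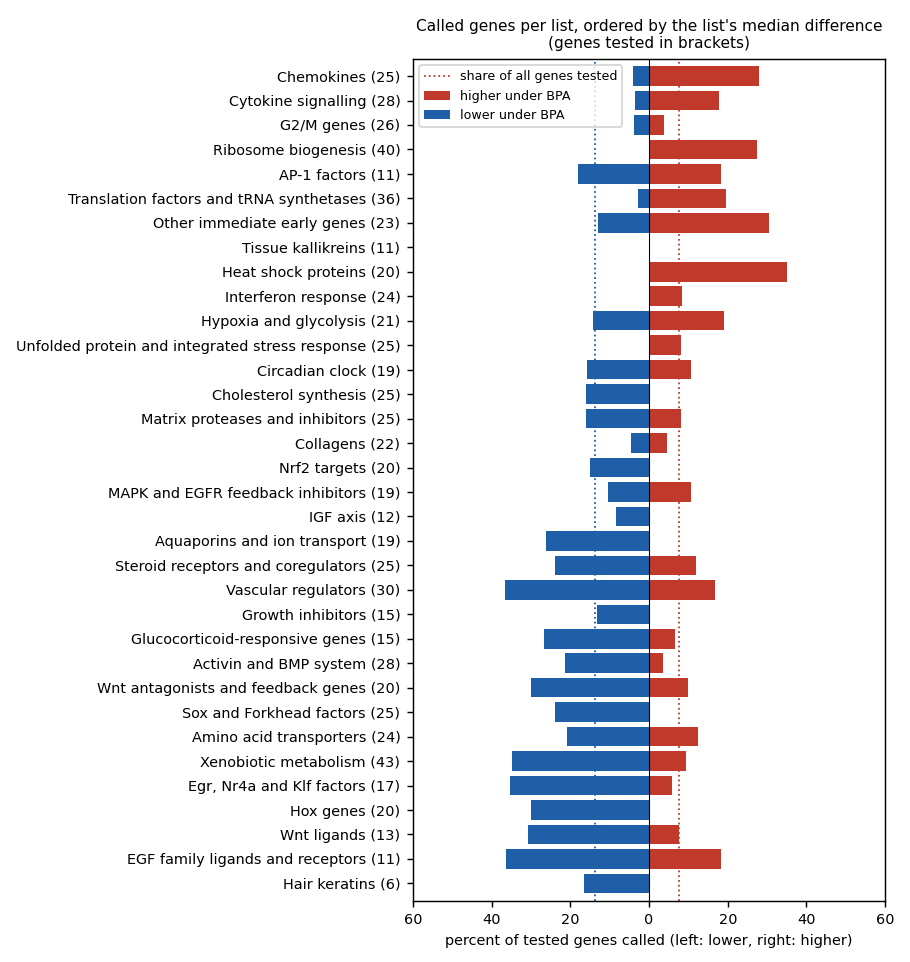
Percent of tested genes called lower (left) and higher (right) under BPA than under E2 for each of 34 gene lists (y axis, number of genes tested in brackets), ordered by the median difference. Dotted lines mark the shares over all genes, 13.7% lower and 7.59% higher. Heat shock proteins, other immediate early genes, chemokines and ribosome biogenesis stand out to the right, and vascular regulators, EGF family genes, Egr, Nr4a and Klf factors and xenobiotic metabolism to the left.

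Vascular regulators were called in both directions, 5 of 30 higher and 11 lower. Edn1, the vasoconstrictor endothelin, was at -0.55, -0.61 and -0.72 on the BPA arrays and 0.01, 0.04 and 0.12 on the E2 arrays, with non-overlapping groups and a difference of -0.68 ± 0.09 (adjusted p = 0.000277). Edn2 and the receptor Ednra were lower as well, at differences of -0.89 ± 0.16 and -0.40 ± 0.11. Aplnr, the apelin receptor of endothelium, was at -1.45, -1.60 and -1.25 on the BPA arrays and -0.49, -0.58 and -0.70 on the E2 arrays. Vegfc (-0.60 ± 0.10) and Vegfb (-0.44 ± 0.10), growth factors of lymphatic and blood vessels, and Angpt2 (-0.27 ± 0.078) were also lower, as were F3 and Plau. Epas1, a hypoxia-inducible factor, was at 1.59, 1.53 and -0.14 on the BPA arrays and 2.11, 2.48 and 2.23 on the E2 arrays. BPA replicate 3 lay below the vehicle mean of 0.16, and the other arrays stood above it. On the higher side Nrp1, a co-receptor for vascular growth factors, was at 0.19, -0.025 and -0.28 on the BPA arrays and -1.09, -0.64 and -0.73 on the E2 arrays, and Nrp1, Nrp2, Plaur and Nos3 exceeded E2 by 0.58 (Nos3) to 0.78 (Nrp1). Plat gave calls in opposite directions on different probes. The 12 endothelial markers summed to 41.9 to 49.4 on the BPA arrays and 51.8 to 57.7 on the E2 arrays, with 2 called lower (Cldn5 and Robo4), and their part in the vascular values was not tested.

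Of 28 genes of the activin and BMP system 6 were lower and 1 was higher. The activin receptor Acvr2b was at -1.23, -1.42 and -0.69 on the BPA arrays and -0.50, -0.28 and -0.38 on the E2 arrays, a difference of -0.73 ± 0.15. Id2, a target of BMP signals, was lower at a difference of -0.81 ± 0.18, and Bmp7 at -0.38 ± 0.12. Tgfb1 was higher, by 0.76 ± 0.24, with the highest value on BPA replicate 1. Among 25 steroid receptors and coregulators 6 were lower and 3 higher. Greb1, a classic estrogen-induced coregulator, was at 2.47, 2.54 and 1.75 on the BPA arrays and 1.10, 1.31 and 1.54 on the E2 arrays against a vehicle mean of -1.16, so it stood above vehicle under both compounds and higher under BPA (difference 0.94 ± 0.17, adjusted p = 0.00184). The coactivator Ncoa3 was higher by 0.40 ± 0.10. Gper1, a membrane receptor reported to bind estrogen, was lower, at -2.77, -2.61 and -1.98 on the BPA arrays and -0.96, -1.03 and -1.58 on the E2 arrays with vehicle at -0.94 (adjusted p = 0.000706). Rarb, Rarg, Nr3c1, Thra and Pgrmc1 were lower, with differences of -0.28 (Pgrmc1) to -0.80 (Thra).

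Of 15 genes that respond to glucocorticoid 1 was higher and 4 lower. Cebpd was higher, at 4.88, 4.49 and 4.61 on the BPA arrays and 3.84, 3.45 and 3.47 on the E2 arrays, where HPTE (3.73) lay with E2 (difference 1.07 ± 0.14, adjusted p = 0.00026). Mt2, a metallothionein, was at 3.93, 4.02 and 4.05 on the BPA arrays and 4.71, 5.24 and 4.29 on the E2 arrays, and Tsc22d3 and Mt1 were lower at differences of -0.76 ± 0.22 and -0.75 ± 0.25. Cebpb was called lower at 5.76, 5.76 and 4.30 on the BPA arrays and 6.15, 6.08 and 6.16 on the E2 arrays, where BPA replicate 3 was far below the other arrays. In the clock, Cry1 and Per2 were higher by 0.74 ± 0.18 and 0.47 ± 0.13 in a list with 2 higher and 3 lower of 19, and Bhlhe40 and Hlf were among the lower. Of 21 genes of hypoxia and glycolysis 4 were higher and 3 lower. Hk2, which phosphorylates glucose, was at 2.29, 2.36 and 2.15 on the BPA arrays and 1.18, 1.07 and 1.36 on the E2 arrays with HPTE at 2.18 and vehicle at 0.73. The difference was 1.06 ± 0.15 (adjusted p = 0.000417), and Pdk1 and Mxi1 were lower at differences of -0.52 ± 0.12 and -0.71 ± 0.11.

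Transporters followed no common direction. Of 24 amino acid transporters 3 were higher and 5 lower. Slc7a5, the large neutral amino acid carrier, was at 2.52, 2.33 and 1.50 on the BPA arrays and 0.93, 1.31 and 1.29 on the E2 arrays with vehicle at -0.72, and its partner Slc3a2 was higher by 0.32 ± 0.089. Slc7a6 was higher and Slc1a1, a glutamate carrier, lower, at -1.10, -0.55 and -0.10 on the BPA arrays and 0.68, 0.23 and 0.43 on the E2 arrays. Slc43a2 was lower at a difference of -1.30 ± 0.35, with BPA replicate 3 far from the others at -0.20, -0.41 and -2.20 on the BPA arrays and 0.17, 0.50 and 0.41 on the E2 arrays. Of 19 aquaporins and ion channels 5 were lower and none higher. Aqp11 was at -2.01, -1.96 and -1.91 on the BPA arrays and -0.89, -1.11 and -1.17 on the E2 arrays (adjusted p = 0.00332), Cftr, the chloride channel of secretory epithelia, at -4.07, -3.26 and -2.99 on the BPA arrays and -2.46, -2.71 and -2.32 on the E2 arrays, and Fxyd4, Fxyd3 and Clca1 were the others. Of 25 matrix proteases and inhibitors 2 were higher (Adamts9 and Adamts8) and 4 lower, Mmp10 among them at -2.34, -2.28 and -2.18 on the BPA arrays and -1.71, -1.34 and -1.49 on the E2 arrays. Collagens gave 1 higher (Col6a3) and 1 lower (Col7a1) of 22.

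Lists of division and growth restraint showed few calls. Of 26 genes of G2 and mitosis 1 was higher (Tpx2, 0.53 ± 0.16) and 1 lower (Cdc25b, -0.46 ± 0.13), below the share of all genes, and the median difference was 0.26. Of 15 growth inhibitors 2 were lower, Ccng2 at 0.94, 0.44 and 1.01 on the BPA arrays and 1.80, 1.54 and 1.46 on the E2 arrays and Btg1. Irs1, an adaptor of insulin and IGF1 receptors, was the member called of 12 in the IGF axis, at 1.91, 2.31 and 3.08 on the BPA arrays and 3.51, 3.28 and 3.44 on the E2 arrays. Of 25 genes of cholesterol synthesis 4 were lower (Ebp, Acat2, Pmvk and Tm7sf2), with differences of -0.39 (Acat2) to -0.27 (Ebp). Of 6 hair keratins Krt87 was called, at 1.71, 1.90 and 0.67 on the BPA arrays and 1.98, 2.22 and 2.53 on the E2 arrays against a vehicle mean of -5.83, so that all 6 arrays lay far above vehicle and BPA lay below E2 (difference -0.82 ± 0.28). None of 11 tissue kallikreins was called by limma, and 2 had an unadjusted p under 0.05. Klk1b5, the brightest of them, read 4.11, 4.40 and 3.02 on the BPA arrays and 1.28, 7.20 and 2.91 on the E2 arrays, and E2 replicate 2, its brightest array, is also the array with the most pancreatic transcript.

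Of the 22 transcripts that the study followed by other means, 3 were called higher under BPA, 3 lower and 16 neither way, 27.3% against 21.2% of all genes. The study chose most of them for estrogen response. It followed Axin1, Per1, Gna12, Mvp and Tnxb because its earlier arrays seemed to show them raised by BPA and HPTE but not by E2. By RT-PCR of independent samples it found Axin1, Per1 and Gna12 raised by E2 as well. Mvp was raised by BPA only, and Tnxb by none. The study also states that the apparent xenoestrogen-specific patterns were gone in its repeat, which is the present series. The 22 transcripts are therefore no independent sample, in particular for calls higher under BPA. Ppp2r2c, a regulatory subunit of protein phosphatase 2A, was at 1.76, 2.14 and 1.30 on the BPA arrays and 0.50, 0.28 and 0.59 on the E2 arrays with vehicle at -1.46 and HPTE at 2.20, a difference of 1.28 ± 0.27 (adjusted p = 0.00451). Axin1 and Mvp, the major vault protein, were higher by 0.41 ± 0.11 and 0.38 ± 0.13, and the lower ones were Fos, Errfi1 and Sox8, given above. The Mvp call was lost in 13 of 21 alternatives. Several transcripts far above vehicle were not called, and their intervals bound the difference. Nr4a1, an orphan nuclear receptor, was at 5.85, 5.91 and 5.96 on the BPA arrays and 5.89, 6.25 and 6.21 on the E2 arrays with vehicle at 1.68, and its 95% interval ran from -0.43 to 0.0042. For Cyr61, a matricellular protein, the interval was -0.32 to 0.54, for Inhbb, the activin beta B subunit, -0.76 to 0.44, and for Wnt4 -0.025 to 0.75. Gadd45g, a stress sensor, was at 7.42, 7.57 and 5.72 on the BPA arrays and 7.83, 7.96 and 7.69 on the E2 arrays. Its groups did not overlap, but the adjusted p was 0.0674. Mad2l1, Cdkn1a, Stat5a and Inhbb were each lowest of the 6 arrays on BPA replicate 3, at 0.98, -0.34, 1.48 and 4.94, and Per1 was highest there, at 2.71. The cell cycle transcripts Aurkb, Ccnb2 and Ube2c differed by 0.33, 0.19 and 0.30, and none was called.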

How the data were processed

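Uterine RNA of the 6 mice was labelled with Cy3 and hybridized to 1-colour Agilent mouse arrays. The intensity values deposited by the authors are Feature Extraction 9.5 processed signals, background-subtracted and detrended within each array, with no scaling between arrays; the deposited series table held the same values. The other columns used, per the file headers, mark whether a probe was well above background (unit: other), name it and give its position on mm7. Because intensities carry no read depth, the number of arrays limits the precision: 75.4% to 79.7% of probes were well above background per array.

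Groups were taken from the labels, 1 uterus to an array. Control spots and flagged outliers were left out, spots of a probe were averaged, and the 75th percentile of every array was subtracted from its log2 intensities. limma 3.58.1 in R 4.3.3 was run on all 20 arrays in 7 groups, and BPA at 2 h was contrasted with E2 at 2 h. Probes well above background on every array of either group were tested. The fit was checked on simulated data with independent noise. Such data lack shifts shared by many probes of an array, so the check does not bear on those. For each gene in the lists the brightest probe was read. Named genes were, in each direction, the 14 called genes with the widest gap between the groups, without clone names and without markers of other tissues, plus the transcripts the study followed and 2 to 4 members of each list, those called with the widest gap or, where none was called, the brightest. Further called members are named and were chosen after their values were seen. A bound on a fold sets the mean of the bright group against the mean of, per dim array, the higher of the probe's own signal and the lowest signal well above background. The contrast, the members and the lists were chosen with earlier results of these data known, and the list of transcripts the study followed was chosen by the study. Alternatives were other normalizations, filters, array weights, slide and replicate blocks, the 6 arrays alone and leaving out each array. Same-numbered BPA and E2 arrays deviated from their group means with correlations of -0.037, 0.045 and -0.152, so the replicate numbers do not pair them. Gene symbols are those of the array design, updated where 16628 of 18630 accessions matched RefSeq. Some genes that meet these rules are counted but not reported here by name.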

Additional observations from a re-analysis of the deposited data

How the results depend on the processing

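The counts rest on how arrays were scaled and pooled. Without scaling 7886 probes were called, 7273 higher and 613 lower, with 191 genes of the lists higher and 21 lower. With spike-in scaling 605 were called, 434 higher and 171 lower (9 and 6 genes of the lists), with the 6 arrays alone 429, 275 and 154 (7 and 3 genes), with a 2-fold minimum 1067, 600 and 467 (19 and 12 genes), and with the slide as a block 3121, 1225 and 1896 (44 and 61 genes). Leaving out 1 array gave 3506 to 8434 called, 1422 to 3501 higher and 1975 to 4933 lower, with 51 to 122 list genes higher and 70 to 169 lower, where the most calls came without BPA replicate 3. The counts stayed within 1.5 times the main ones under quantile normalization, normexp, either background filter, array weights and trend with robust spread. The replicate block gave 5734 calls, 2428 higher and 3306 lower, and cost 11 of 173 single genes their call; the numbers do not pair the arrays, and the cause was not tested.

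The difference over probes lowered by HPTE was reversed to 0.019 without scaling, shrank to -0.086 (exact permutation p = 0.9) with spike-in scaling and to -0.17 with normexp, and was -0.44 to -0.19 with 1 array left out, and that over raised probes stayed at 0.23 to 0.50. Ebp was reversed to 0.023 without scaling, and Per1, not called with all arrays, was called lower at -0.35 without BPA replicate 3 (adjusted p = 0.0406) and reached 0.21 without BPA replicate 2. The cause was not tested. A further 32 values of 9 genes changed sign while called under neither setting. Of 173 single genes, 156 of them called, 104 lost their call with spike-in scaling, 115 with the 6 arrays alone, 48 with the slide block, 48 without scaling and 7 to 41 with 1 array left out. Among the least firm calls, Foxc2 was lost in 15 of 21 alternatives, Osmr in 14, and Mvp, Stat3, Cebpb, Klf2 and Btg1 in 13. Dim probes limit what can be said: where no array of a group was well above background only a bound is given, and a difference with some such arrays (Klhl14, Gpr12, Il6) is less certain.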
